A study of Saccharomyces cerevisiae with 9 samples.

Results

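The genes described here are 51 listed budding yeast genes that encode the cytosolic translation machinery around the ribosome. They comprise 20 cytosolic aminoacyl-tRNA synthetase genes and 31 genes for initiation, elongation and termination factors together with GCN2, GCN4 and PAB1. They were chosen by name and function, with earlier results of these data known, and 48 of the 51 had a probe set among the 5667 genes analysed. The 3 without one were TEF1, EFT1 and TIF1, and each has a near-identical copy, TEF2, EFT2 and TIF2, that was measured on a probe set shared by a gene family. Signal from the members of each such pair therefore cannot be told apart, and the values of TEF2, EFT2 and TIF2 stand for the pair.

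The arrays were GeneChip Yeast 2.0 arrays of total RNA from Saccharomyces cerevisiae in the BY4741 background, a laboratory strain, grown at 30 °C in the rich medium YPD and taken on day 5. Cells labelled NR had 2% glucose, cells labelled CR had 0.5% glucose, and cells labelled RM had 2% glucose plus 100 nM rapamycin, which inhibits the TOR kinase. With 3 biological replicates a group and 1 array for each, the 9 arrays allow 3 comparisons: CR with NR for glucose level, RM with NR for rapamycin, and CR with RM. These are bulk samples of whole cultures, so fewer cells of a kind and less RNA per cell cannot be told apart. What the replicates share beyond their set number, such as a starter culture, is not stated in the labels.

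Aminoacyl-tRNA synthetases each charge a tRNA with its amino acid. Initiation factors bring the charged initiator tRNA and the small ribosomal subunit to an mRNA, elongation factors then deliver tRNAs and move the ribosome along, and release factors end the chain at a stop codon. The TOR kinase promotes synthesis of this machinery in well-fed yeast, and the kinase Gcn2 slows initiation by phosphorylating eIF2 when uncharged tRNA builds up, which at the same time allows translation of the mRNA for the activator Gcn4.

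Values are log2 signals per array as the authors deposited them, and differences are those of group means on this scale, negative where the first-named group was lower, so that 1 is a 2-fold difference. Differences between groups were tested with limma across all 5667 genes and all 9 arrays, and a gene was called higher or lower at a Benjamini-Hochberg adjusted p under 0.05. The spread between replicates differed strongly between the groups. The median SD over all genes was 0.294 in NR, 0.0553 in CR and 0.161 in RM, and Pearson's r between arrays ran from 0.928 to 0.977 within NR, from 0.997 to 0.998 within CR and from 0.980 to 0.995 within RM. NR replicate 3 stood apart for the genes described here: it was the highest NR array in 19 of 20 synthetases and 18 of 28 factors, against 37.6% of all genes, and lay a median of 1.03 above the mean of the other NR arrays in synthetases and 0.26 in factors. RM replicate 2 was the lowest RM array in 16 of 20 synthetases and 17 of 28 factors, against 42.6% of all genes, with a median of -0.60 relative to the other RM arrays in synthetases and -0.16 in factors. NR replicate 1 was the lowest NR array in 16 of 20 synthetases and 15 of 28 factors, against 36.3% of all genes. Where leaving out 1 array ended a single gene's call given below, or moved its called difference by over 1.5-fold, this is stated beside it. LEU2, MET17 and URA3, which are deleted in BY4741, lay within the lowest 1.94% of genes in every array. Of the markers of mating type a, the type of BY4741, STE2 measured 7.26, 7.37 and 8.69 in NR, 6.88, 6.95 and 6.99 in CR, and 8.12, 7.73 and 8.004 in RM, with all CR arrays below all others. Over the 9 arrays, the lowest percentile among all genes was 48.9 for STE2, 76.1 for MFA1, 45.9 for MFA2 and 14.1 for BAR1. The highest percentile of the type alpha markers was 48.2 for STE3, 43.1 for MF(ALPHA)1 and 76.4 for SAG1, so the levels of both sets overlapped.

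**Figure D1:**
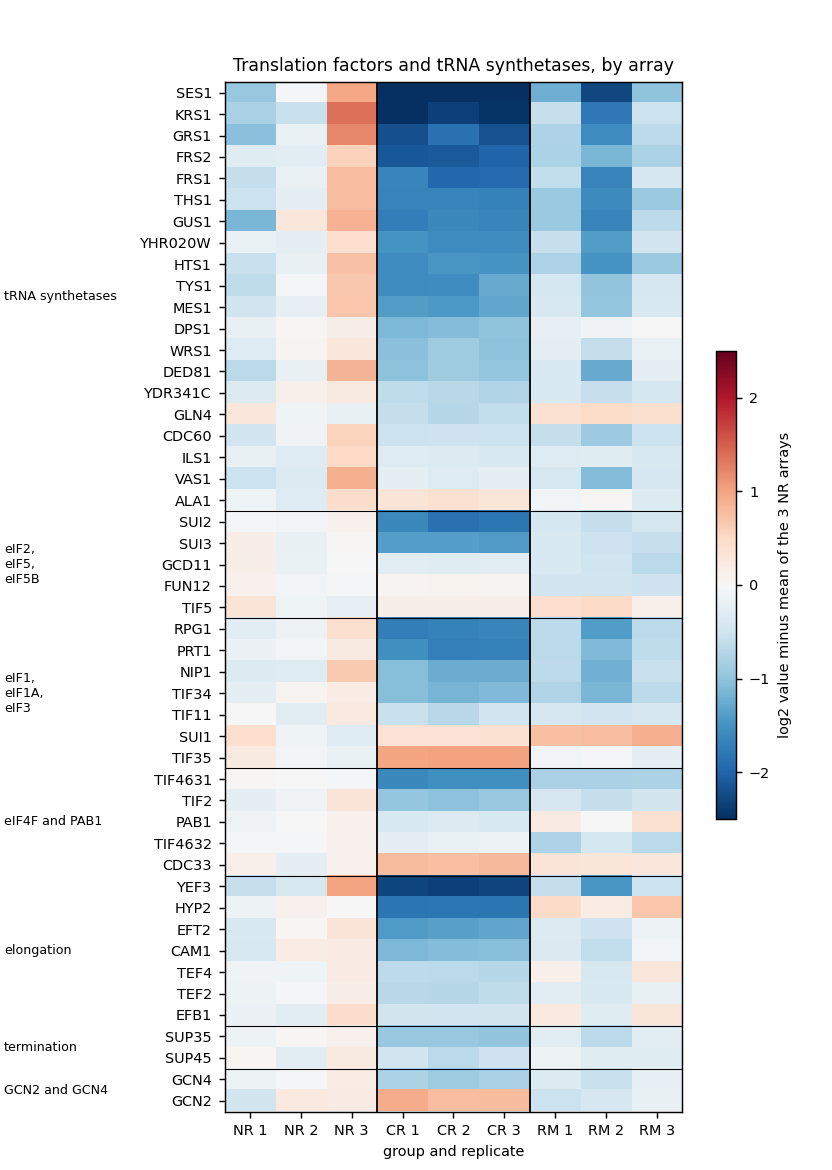
Heat map of the log2 value minus the mean of the 3 NR arrays for the 48 measured genes (rows, by role) in the 9 arrays (columns), with blue lower and red higher than NR; values beyond the scale take its end colour. CR arrays are blue in nearly every synthetase row and in most factor rows, CDC33, TIF35 and GCN2 are red in CR, and NR replicate 3 is the reddest NR array in most synthetase rows.

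In CR, 35 of the 48 genes were lower than in NR and 3 were higher, where 33.6% of all genes were called lower and 35.3% higher. The median difference of the 48 was -0.98, a factor of 1.98, beside 0.02 for all genes. The synthetases gave 16 lower and 0 higher of 20 (17 lower and 0 higher at an unadjusted p under 0.05 in the same limma fit), with a median of -1.42, and the factors gave 19 lower and 3 higher of 28, with a median of -0.76. In 40 of the 48 genes all 3 CR arrays lay below all 3 NR arrays, against 36.9% of all genes, and in 3 they lay above, against 38.6%. A difference of at least 2-fold was reached by 23 genes downward and 0 upward, against 19.9% and 17.9% of all genes. The 3 genes higher in CR were CDC33, TIF35 and GCN2. Without NR replicate 3 the median over the synthetases was -1.07, with 15 lower and 1 higher of 20, where 34.4% of all genes were lower and 36.2% higher. A per-gene test used a separate spread for each group and, unlike limma, did not borrow spread from other genes. With it, 12 of the 48 were called, 11 lower and 1 higher (15.0% and 16.3% of all genes), of which 1 was a synthetase, DPS1.

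In RM, 20 of the 48 were lower than in NR and 3, GLN4, SUI1 and HYP2, were higher, where 19.4% of all genes were called lower and 17.6% higher. The median difference was -0.49, a factor of 1.40, beside -0.05 for all genes, and 3 genes were lower by at least 2-fold and 0 higher, against 4.66% and 3.99% of all genes. All 3 RM arrays lay below all NR arrays in 22 genes, against 22.7% of all genes, and above them in 4, against 20.8%. The synthetases gave 7 lower and 1 higher, with a median of -0.66, and the factors 13 lower and 2 higher, with a median of -0.39. The number of calls differed between fits in both directions. With the NR and RM arrays alone, 5 genes were called, against 7.91% lower and 8.35% higher of all genes: TIF4631, TIF4632, PRT1 and TIF34 lower and SUI1 higher. With the per-gene test that used a separate spread for each group, 0 of the 48 were called, as were 0.0% of all genes in either direction. In that test 8 of the 48 and 1317 of all genes had an unadjusted p under 0.05. Without NR replicate 1 the number rose from 23 to 35, with 31 lower and 4 higher, against 25.7% and 22.5% of all genes. The 14 genes added there were FRS1, GRS1, GUS1, MES1, TYS1, WRS1, TEF2, YEF3, EFT2, CAM1, GCN2 and GCN4 as lower and CDC33 and TIF5 as higher, and the 2 calls lost were those of TIF11 and HYP2. Without RM replicate 2, 9 genes were lower and 2 higher, against 12.1% and 12.3% of all genes, and 0 of them were synthetases (7 at an unadjusted p under 0.05 in limma). Without NR replicate 3 and RM replicate 2 together, the synthetase median was -0.11 and the median over all 48 was -0.16, with 13 lower and 5 higher, against 19.5% and 18.4% of all genes.

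In CR, 23 of the 48 were lower than in RM and 5 were higher, where 26.4% of all genes were called lower and 29.7% higher. The median difference was -0.55, beside 0.00175 for all genes. All 3 CR arrays lay below the RM arrays in 31 genes, against 37.0% of all genes, and above them in 8, against 38.9%. At least 2-fold were 7 lower and 2 higher, against 13.2% and 12.7%. The 5 higher in CR were CDC33, TIF4632, TIF35, FUN12 and GCN2. CR with NR and RM with NR use the same NR arrays, so a high or low NR array moves both, and the values of each comparison are given side by side below.

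**Figure D2:**
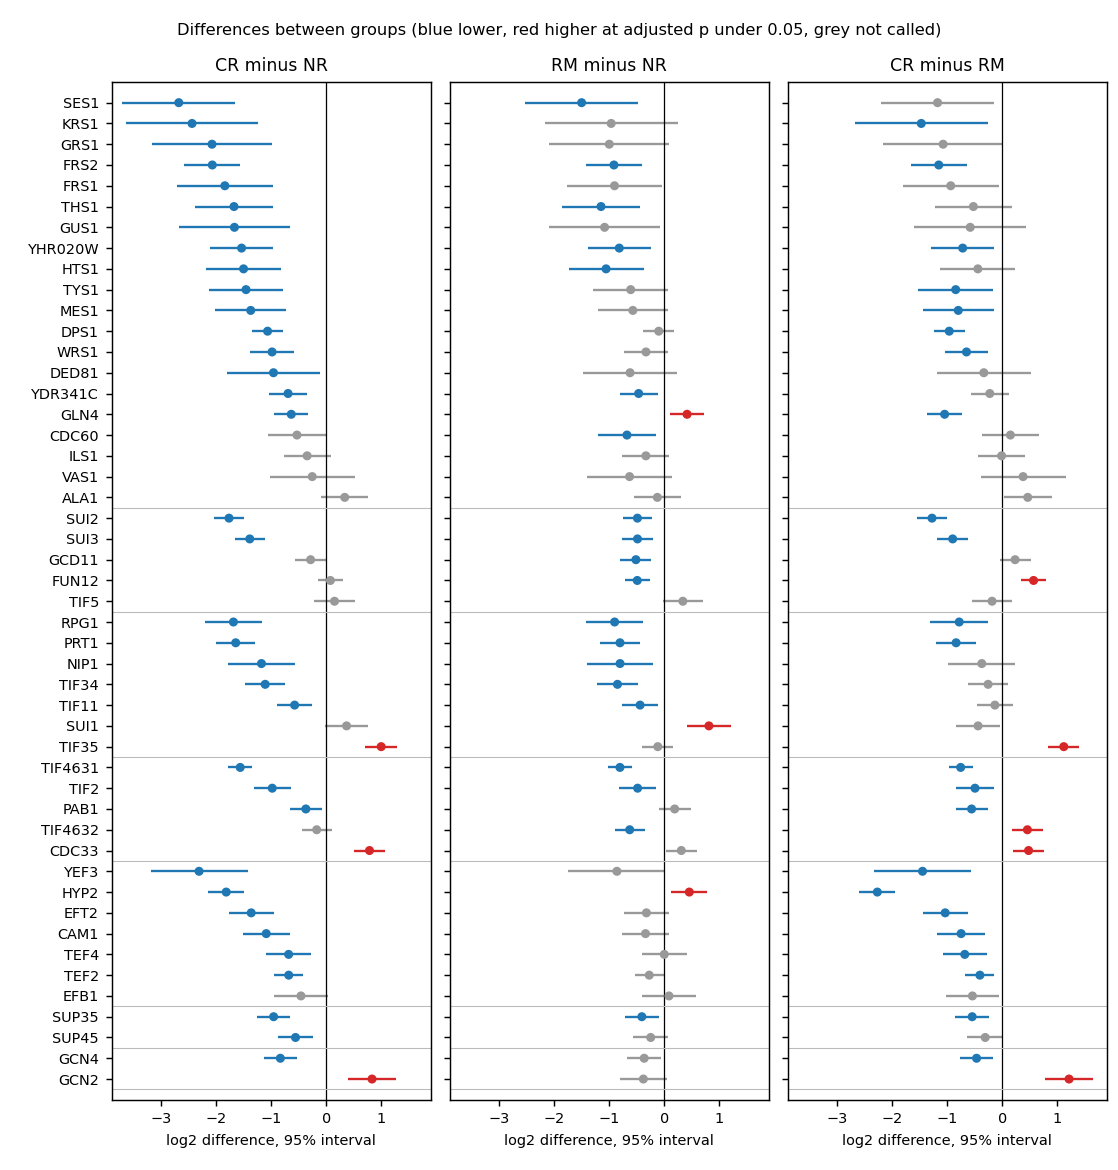
Log2 difference with its 95% interval from the limma fit for each of the 48 genes (rows, by role) in CR minus NR, RM minus NR and CR minus RM, coloured where the adjusted p was under 0.05. Most points lie left of 0 in CR minus NR, from SES1 at -2.68 to TIF35 at 0.999, and the intervals of the synthetases are wide.

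Among the synthetases, SES1 (YDR023W), KRS1 (YDR037W) and GRS1 (YBR121C), which charge serine, lysine and glycine tRNAs, had the largest differences. SES1 measured 6.51, 7.43 and 8.41 in NR, 4.94, 4.76 and 4.60 in CR, and 6.22, 5.18 and 6.44 in RM. The CR arrays lay below all others, and the RM arrays lay below the NR arrays, with RM replicate 2 lowest. SES1 was 6.42-fold lower in CR than in NR (log2 difference -2.68, 95% interval -3.71 to -1.65, adjusted p 0.000617) and lower in RM, at -1.504 (adjusted p 0.0309), a call lost without RM replicate 2 (-1.12), without NR replicate 3 (-1.02) and without NR replicate 2 or RM replicate 1. KRS1 measured 7.26, 7.52 and 9.45 in NR, 5.54, 5.73 and 5.63 in CR, and 7.49, 6.30 and 7.54 in RM. Its CR arrays lay below all others, whereas the NR and RM arrays overlapped and NR replicate 3 was far above the other NR arrays. KRS1 was lower in CR than in NR, at -2.44 (-3.65 to -1.23, adjusted p 0.00277), or -1.75 without NR replicate 3. It was lower than in RM, at -1.47 (adjusted p 0.0404), and this call was lost when any 1 CR array, RM replicate 1 or RM replicate 3 was left out (-1.26 to -1.52). GRS1 measured 6.08, 6.97 and 8.33 in NR, 4.93, 5.26 and 4.95 in CR, and 6.35, 5.55 and 6.48 in RM. Again the CR arrays were the lowest and the NR and RM arrays overlapped. GRS1 was lower in CR than in NR, at -2.08 (-3.17 to -0.98, adjusted p 0.0039), or -1.47 without NR replicate 3. Its difference between RM and NR was -1.001 (adjusted p 0.133), and it was -0.40 without NR replicate 3 and -1.52, called lower, without NR replicate 1.

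The other synthetases lower in CR than in NR ranged from -2.07 for FRS2 to -0.64 for GLN4. FRS1 and FRS2 encode the 2 subunits of the phenylalanine enzyme, and they were lower in CR, with differences of -1.84 and -2.07. The gap between their differences was 0.23, with overlapping arrays (exact permutation test, two-sided, p = 0.5). YHR020W, THS1, GUS1, HTS1, TYS1 and MES1, for proline, threonine, glutamate, histidine, tyrosine and methionine, lay between -1.68 and -1.37. DPS1, for aspartate, had the smallest NR spread of the set, with NR values of 9.33, 9.57 and 9.67, CR values of 8.41, 8.44 and 8.52 and RM values of 9.31, 9.44 and 9.51. Its CR arrays were below all others and its RM arrays overlapped those of NR. DPS1 was lower in CR, at -1.07 (adjusted p 5.92e-05) and differed by -0.10 between RM and NR (adjusted p 0.537). DED81, for asparagine, was lower in CR at an adjusted p of 0.0451, and this call was lost when any 1 CR array, NR replicate 2 or 3, or RM replicate 1 or 3 was left out (-0.53 to -1.05).

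Not all synthetases were called lower in CR, although 19 of the 20 differences were below 0. ALA1, ILS1, CDC60 and VAS1, for alanine, isoleucine, leucine and valine, did not pass the test against NR. CDC60 differed by -0.53 (adjusted p 0.0663) and ILS1 by -0.35 (adjusted p 0.129), each with all CR arrays below all NR arrays. CDC60 was called lower without NR replicate 1 (-0.77), and ILS1 without NR replicate 2 (-0.51). VAS1 differed by -0.26 (adjusted p 0.524), with overlapping arrays. ALA1 had CR values of 9.22, 9.30 and 9.21 and NR values of 8.81, 8.58 and 9.34. The CR arrays lay inside the NR range, and the difference was 0.34 (-0.10 to 0.77, adjusted p 0.145), or 0.55 with a call as higher once NR replicate 3 was left out. GLN4 (YOR168W), for glutamine, stood out in RM: it measured 8.29, 7.90 and 7.82 in NR, 7.41, 7.30 and 7.39 in CR, and 8.39, 8.47 and 8.40 in RM. The 3 groups did not overlap, with CR lowest and RM highest. GLN4 was lower in CR than in NR, at -0.64 (adjusted p 0.00263), higher in RM than in NR by 0.41 (adjusted p 0.0431), and lower in CR than in RM, at -1.05 (adjusted p 0.000194). The RM call of GLN4 was lost in 8 of the 9 fits that left out 1 array, with differences from 0.32 to 0.56.

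**Figure D3:**
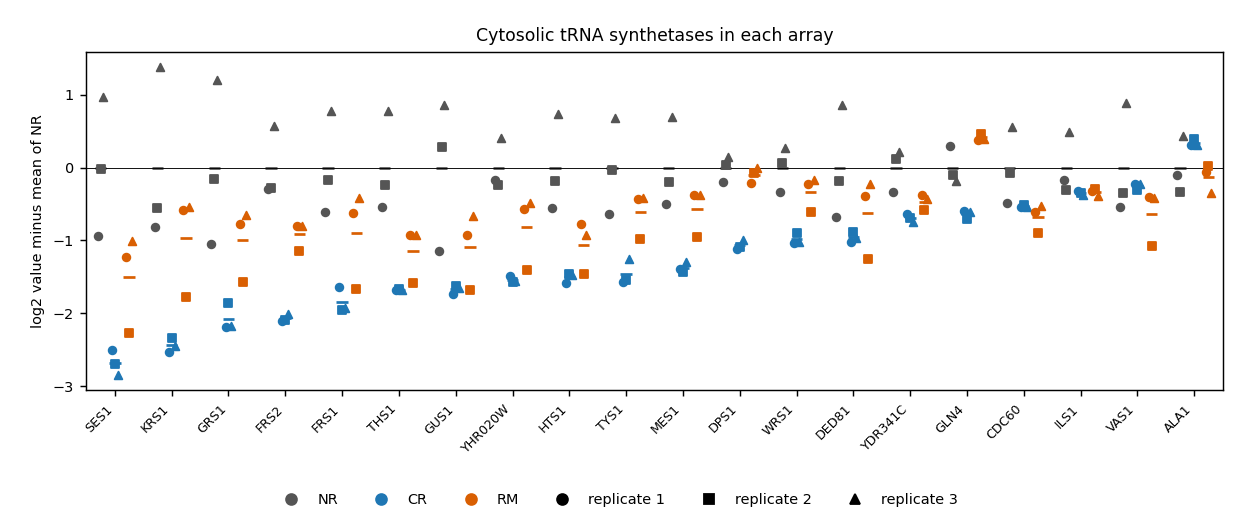
Log2 value minus the mean of NR in each of the 9 arrays for the 20 cytosolic tRNA synthetase genes, ordered by CR minus NR, with group means as bars, colours for groups and symbols for replicates. The CR symbols lie close together, NR replicate 3 (grey triangle) is the top NR point in 19 genes, and RM replicate 2 (orange square) is the lowest RM point in 16.

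Partners of these enzymes were measured as well. ARC1, a cofactor that binds the methionine and glutamate enzymes and their tRNAs, was lower in CR, at -1.75 (adjusted p 0.000322) and in RM, at -1.47 (adjusted p 0.00426). CRS1, for cysteine, was lower in CR, at -0.87 (adjusted p 0.0097) and differed by -0.35 in RM (adjusted p 0.275). GRS2, the second glycine synthetase gene of yeast, measured 6.08, 6.54 and 6.77 in NR, 6.49, 6.48 and 6.53 in CR, and 5.59, 5.57 and 5.87 in RM. Its CR arrays lay within the NR range and its RM arrays below both. GRS2 differed by 0.04 between CR and NR (adjusted p 0.864) and was lower in RM, at -0.78 (adjusted p 0.00976). Among 13 genes for mitochondrial synthetases, which charge tRNAs inside the organelle, 7 were lower and 2 (MSR1 and SLM5) higher in CR than in NR and 6 lower and 1 (MSR1) higher in RM, with medians of -0.48 and -0.52. Over all genes 33.6% were lower and 35.3% higher in CR, and 19.4% and 17.6% in RM. MSW1, MST1 and MSF1, for tryptophan, threonine and phenylalanine, had low CR signals. LEU2, which is deleted in BY4741, read 1.71 to 1.80 in CR. All 3 CR arrays of MST1 and MSF1 were at or below LEU2, so their levels in CR have only an upper limit. For MSW1 this held in 1 CR array, and its CR values were 1.94, 1.76 and 2.46. With the LEU2 signal as the lowest level counted in CR, MSW1 was 3.56-fold, MST1 2.78-fold and MSF1 2.18-fold lower in CR than in the mean of all 3 NR arrays. These folds make no allowance for the spread between arrays, so they are not lower bounds. Without that floor the limma differences were -1.84, -1.75 and -1.25 (adjusted p 0.00075, 0.00045 and 0.00579). NR replicate 3 was the highest NR array for each of these genes, and leaving it out gave -1.49, -1.37 and -0.82, again without the floor. MSD1, for aspartate, lay above that signal in every array and was lower in CR, at -1.76 (adjusted p 1.51e-05). MST1 had the largest difference in RM at -0.87 (adjusted p 0.0381), a call lost in 7 of the 9 fits that left out 1 array (-0.76 to -0.996). MSR1, for arginine, was higher in CR by 0.65 (adjusted p 0.00692) and in RM by 0.53 (adjusted p 0.0372), and the RM call was lost in 6 of the 9 fits (0.37 to 0.54). The CR call of SLM5, for asparagine, at 0.46 (adjusted p 0.0178), was lost without CR replicate 2 (0.399).

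The eIF2 complex carries the initiator tRNA, and of its 3 subunits SUI2 (YJR007W) and SUI3 (YPL237W) were called lower in CR than in NR while GCD11 (YER025W) did not pass the test. Over all genes, 33.6% were called lower in CR. SUI2, the alpha subunit that Gcn2 phosphorylates, measured 7.22, 7.21 and 7.37 in NR, 5.65, 5.39 and 5.45 in CR, and 6.83, 6.66 and 6.84 in RM. The groups did not overlap, with NR highest and CR lowest. SUI2 was 3.41-fold lower in CR than in NR (log2 difference -1.77, -2.04 to -1.499, adjusted p 3.05e-06) and lower in RM, at -0.49 (adjusted p 0.0137). SUI3, the beta subunit, measured 9.01, 8.67 and 8.88 in NR, 7.48, 7.47 and 7.44 in CR, and 8.48, 8.34 and 8.29 in RM. The order of the groups was the same as for SUI2, without overlap. SUI3 was lower in CR, at -1.39 (adjusted p 1.2e-05) and in RM, at -0.49 (adjusted p 0.0152). GCD11, the gamma subunit that binds the tRNA and GTP, measured 9.31, 9.01 and 9.18 in NR, 8.90, 8.86 and 8.89 in CR, and 8.79, 8.67 and 8.49 in RM. Its CR and RM arrays lay below the NR arrays, and the RM arrays were the lowest. GCD11 differed by -0.28 between CR and NR (adjusted p 0.0673) and was lower in RM, at -0.52 (adjusted p 0.0132). SUI2 minus GCD11 differed by -1.48 between CR and NR without overlap, with a two-sided exact permutation p of 0.1, the smallest that 3 arrays against 3 can give (0.185 after adjustment over 24 such comparisons). Between RM and NR it differed by 0.03, with overlapping arrays (exact permutation p = 1). The gap in CR restates the unlike differences of SUI2 and GCD11 given above.

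FUN12 (YAL035W) encodes eIF5B, which joins the ribosomal subunits, and it measured 9.02, 8.85 and 8.89 in NR, 8.99, 9.01 and 8.98 in CR, and 8.44, 8.44 and 8.39 in RM. The CR arrays lay within the NR range, and the RM arrays lay below both groups. FUN12 differed by 0.08 between CR and NR (adjusted p 0.527), was lower in RM than in NR, at -0.49 (adjusted p 0.00733) and was higher in CR than in RM by 0.57 (adjusted p 0.00119). TIF5, encoding eIF5, which activates GTP hydrolysis by eIF2, passed the test in none of the 3 comparisons, with differences of 0.15 between CR and NR, 0.34 between RM and NR and -0.19 between CR and RM (adjusted p 0.428, 0.13 and 0.353).

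The eIF3 complex holds the small subunit ready for the mRNA, and 4 of its 5 core subunits were lower in CR while the fifth, TIF35, was higher. Over all genes, 33.6% were lower and 35.3% higher in CR. RPG1 (YBR079C), the a subunit, measured 7.36, 7.52 and 8.03 in NR, 5.91, 5.95 and 5.996 in CR, and 6.99, 6.24 and 6.99 in RM. The CR arrays were the lowest, the RM arrays lay below NR, and RM replicate 2 was nearest to CR. RPG1 was lower in CR, at -1.69 (-2.21 to -1.17, adjusted p 0.000166) and in RM, at -0.90 (adjusted p 0.0167), or -0.46 in RM with NR replicate 3 and RM replicate 2 both left out. PRT1 (YOR361C), the b subunit, measured 7.59, 7.65 and 7.95 in NR, 6.19, 6.02 and 6.04 in CR, and 7.05, 6.63 and 7.09 in RM. The 3 groups did not overlap. PRT1 was lower in CR, at -1.65 (adjusted p 2e-05) and in RM, at -0.81 (adjusted p 0.00576). NIP1 (YMR309C), the c subunit, measured 7.61, 7.63 and 8.59 in NR, 6.88, 6.71 and 6.71 in CR, and 7.29, 6.75 and 7.38 in RM. The NR arrays lay above all others, and the RM and CR arrays overlapped. NIP1 was lower in CR, at -1.18 (adjusted p 0.00346), and its RM call at -0.80 (adjusted p 0.0431) was lost in 7 of the 9 fits that left out 1 array, and stood at -0.48 without NR replicate 3 and -0.61 without RM replicate 2.

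TIF34, the i subunit, was lower in CR, at -1.11 (adjusted p 0.000242) and in RM, at -0.85 (adjusted p 0.00516). TIF35 (YDR429C), the g subunit, which contacts TIF34 in the complex, measured 9.01, 8.73 and 8.63 in NR, 9.77, 9.80 and 9.80 in CR, and 8.72, 8.73 and 8.56 in RM. The CR arrays lay above all others, and the NR and RM arrays overlapped. TIF35 was 1.999-fold higher in CR than in NR (log2 difference 0.999, 0.71 to 1.28, adjusted p 9.86e-05), and higher than in RM by 1.12 (adjusted p 7.84e-05). Its difference between RM and NR was -0.12 (adjusted p 0.477). TIF35 minus PRT1 was 2.65 higher in CR than in NR and 0.69 higher in RM than in NR, without overlap in either (exact permutation p = 0.1 for both, adjusted 0.185). The pair sets a subunit higher in CR against another that was lower, so these gaps restate the differences given above. HCR1, an eIF3-associated factor outside the list, differed by -0.20 in CR (adjusted p 0.133) and was lower in RM, at -0.63 (adjusted p 0.004).

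SUI1 (YNL244C) and TIF11 encode eIF1 and eIF1A, which bind the small subunit and govern the choice of start codon. SUI1 measured 10.65, 10.12 and 9.90 in NR, 10.59, 10.58 and 10.61 in CR, and 10.98, 11.004 and 11.12 in RM. The RM arrays lay above all others, and the CR arrays lay inside the wide NR range. SUI1 was higher in RM than in NR by 0.81 (0.41 to 1.21, adjusted p 0.00865), a call kept whichever array was left out, and differed by 0.37 between CR and NR (adjusted p 0.087). TIF11 was lower in CR, at -0.58 (adjusted p 0.00542). Its RM call, at -0.44 (adjusted p 0.0387), was lost in 8 of the 9 fits that left out 1 array.

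The eIF4F complex binds the cap of the mRNA, and its parts went in different directions in CR. TIF4631 (YGR162W), the main form of the scaffold eIF4G, measured 7.67, 7.65 and 7.61 in NR, 6.02, 6.10 and 6.11 in CR, and 6.83, 6.83 and 6.85 in RM. The 3 groups were far apart, and the replicates within each were close together. TIF4631 was lower in CR, at -1.56 (-1.79 to -1.34, adjusted p 2.18e-06) and in RM, at -0.81 (-1.03 to -0.59, adjusted p 0.000784). TIF4632 (YGL049C), the second eIF4G gene, measured 6.41, 6.42 and 6.57 in NR, 6.24, 6.31 and 6.33 in CR, and 5.69, 6.03 and 5.79 in RM. The RM arrays lay below both other groups, while the CR and NR arrays were adjacent without overlapping. TIF4632 differed by -0.17 between CR and NR (adjusted p 0.231) and was lower in RM, at -0.63 (adjusted p 0.00552). TIF4631 minus TIF4632 differed by -1.39 between CR and NR without overlap (exact permutation p = 0.1, adjusted 0.185), and by -0.18 between RM and NR with overlap (exact permutation p = 0.3).

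CDC33 (YOL139C), the cap-binding protein eIF4E, measured 8.64, 8.26 and 8.61 in NR, 9.28, 9.26 and 9.32 in CR, and 8.83, 8.81 and 8.79 in RM. The CR arrays were highest and the RM arrays lay between CR and NR, without overlap. CDC33 was higher in CR than in NR by 0.79 (0.51 to 1.07, adjusted p 0.000399) and higher than in RM by 0.48 (adjusted p 0.0091), and it differed by 0.31 between RM and NR (adjusted p 0.079). TIF2 (YJL138C), read together with TIF1 as the helicase eIF4A, measured 9.61, 9.76 and 10.17 in NR, 8.87, 8.81 and 8.90 in CR, and 9.43, 9.26 and 9.39 in RM. NR was highest and CR lowest, without overlap. TIF2 was lower in CR, at -0.98 (adjusted p 0.000317) and in RM, at -0.49 (adjusted p 0.0334), and the RM call was lost in 7 of the 9 fits that left out 1 array. PAB1 (YER165W), the poly(A)-binding protein that contacts eIF4G, measured 10.02, 10.10 and 10.22 in NR, 9.74, 9.78 and 9.71 in CR, and 10.31, 10.09 and 10.498 in RM. CR was lowest, and the RM and NR arrays overlapped. PAB1 was lower in CR than in RM, at -0.56 (adjusted p 0.00472), and its call against NR, at -0.37 (adjusted p 0.0276), was lost without any 1 CR array, NR replicate 2 or NR replicate 3 (-0.32 to -0.39). TIF3, or eIF4B, which stimulates eIF4A and is not on the list, differed by -0.18 in CR (adjusted p 0.206) and was lower in RM, at -0.69 (adjusted p 0.00323).

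**Figure D4:**
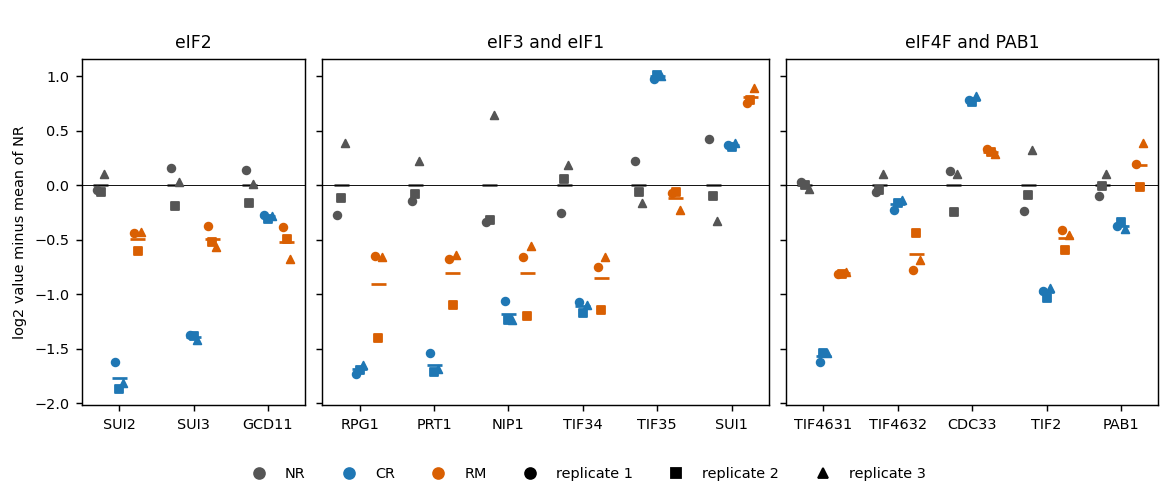
Log2 value minus the mean of NR in each of the 9 arrays for subunits of eIF2, eIF3 with eIF1, and eIF4F with PAB1, with group means as bars, colours for groups and symbols for replicates. TIF35 and CDC33 have their CR points above NR while RPG1, PRT1 and TIF4631 have theirs more than a log2 unit below, and the CR points of GCD11 and TIF4632 lie just under NR.

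Among elongation factors, 6 of 7 were lower in CR than in NR, with a median of -1.09, where 33.6% of all genes were lower. In RM 0 of the 7 were lower and 1, HYP2, was higher, where 19.4% of all genes were lower and 17.6% higher. Without NR replicate 1, TEF2, YEF3, EFT2 and CAM1 were called lower in RM and the call of HYP2 was lost, where 25.7% of all genes were lower. YEF3 (YLR249W) encodes eEF3, an ATPase that fungal ribosomes need for each step, and it measured 9.46, 9.63 and 11.02 in NR, 7.74, 7.70 and 7.73 in CR, and 9.44, 8.58 and 9.51 in RM. CR was lowest, NR and RM overlapped, and NR replicate 3 was the highest array. YEF3 was 4.97-fold lower in CR than in NR (log2 difference -2.31, -3.20 to -1.43, adjusted p 0.000595), or -1.82 without NR replicate 3. It differed by -0.86 between RM and NR (adjusted p 0.113), by -0.37 without NR replicate 3 and by -1.15, called lower, without NR replicate 1. HEF3, its paralogue, measured 10.29, 10.83 and 9.75 in NR, 9.97, 9.95 and 9.98 in CR, and 10.78, 10.77 and 11.003 in RM. The CR arrays lay within the NR range, and the RM arrays lay above CR. HEF3 differed by -0.32 between CR and NR (adjusted p 0.241) and was lower in CR than in RM, at -0.88 (adjusted p 0.00946).

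HYP2 (YEL034W) encodes eIF5A, which relieves ribosomes stalled at stretches such as polyproline, and measured 10.81, 11.06 and 10.96 in NR, 9.12, 9.13 and 9.12 in CR, and 11.41, 11.13 and 11.65 in RM. The RM arrays lay above NR and the CR arrays far below both. HYP2 was 3.53-fold lower in CR than in NR (log2 difference -1.82, -2.14 to -1.49, adjusted p 6.47e-06) and 4.84-fold lower in CR than in RM (adjusted p 3.35e-06). Its call as higher in RM than in NR, by 0.45 (adjusted p 0.0361), was lost when any 1 CR array, NR replicate 1, RM replicate 1 or RM replicate 3 was left out (0.33 to 0.45). ANB1, the eIF5A gene that yeast uses at low oxygen, measured 3.61, 3.81 and 3.59 in NR, 1.505, 1.82 and 1.82 in CR, and 3.505, 3.06 and 3.90 in RM. Its CR arrays lay below all others and its RM arrays overlapped NR. In CR the signal of ANB1 was at about that of the deleted LEU2, so its level there has only an upper limit. With the LEU2 signal as the lowest level counted in CR, ANB1 was 3.70-fold lower in CR than in the mean of the NR arrays, with no allowance for the spread between arrays. Without that floor the limma difference was -1.96 (adjusted p 3.03e-05). ANB1 differed by -0.18 between RM and NR (adjusted p 0.494).

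EFT2 (YDR385W), read together with EFT1 as the translocation factor eEF2, measured 10.47, 10.90 and 11.16 in NR, 9.43, 9.49 and 9.53 in CR, and 10.51, 10.32 and 10.73 in RM. CR was lowest, and the RM and NR arrays overlapped. EFT2 was lower in CR, at -1.36 (adjusted p 0.000133). TEF2 (YBR118W), read together with TEF1 as eEF1A, which delivers tRNAs to the ribosome, measured 12.503, 12.58 and 12.79 in NR, 11.93, 11.91 and 11.99 in CR, and 12.37, 12.24 and 12.44 in RM. The 3 groups did not overlap, with NR highest and CR lowest. TEF2 was lower in CR than in NR, at -0.68 (adjusted p 0.000667), lower in CR than in RM, at -0.41 (adjusted p 0.0147; the call was lost without CR replicate 1 or 2 or RM replicate 3, at -0.36 to -0.40), and differed by -0.27 between RM and NR (adjusted p 0.0957).

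CAM1 (YPL048W) and TEF4 (YKL081W) are the paired genes for the gamma subunit of eEF1B, which recharges eEF1A with GTP. CAM1 measured 9.78, 10.36 and 10.38 in NR, 9.05, 9.09 and 9.11 in CR, and 9.82, 9.57 and 10.11 in RM, and TEF4 measured 8.49, 8.46 and 8.77 in NR, 7.91, 7.89 and 7.86 in CR, and 8.70, 8.16 and 8.85 in RM. CR was lowest for both, and RM overlapped NR for both. CAM1 was lower in CR, at -1.09 (adjusted p 0.000724) and TEF4, at -0.68 (adjusted p 0.00732). TEF4 minus CAM1 was 0.41 higher in CR than in NR without overlap (exact permutation p = 0.1, adjusted 0.185). EFB1, the catalytic alpha subunit, differed by -0.46 between CR and NR (adjusted p 0.0814).

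**Figure D5:**
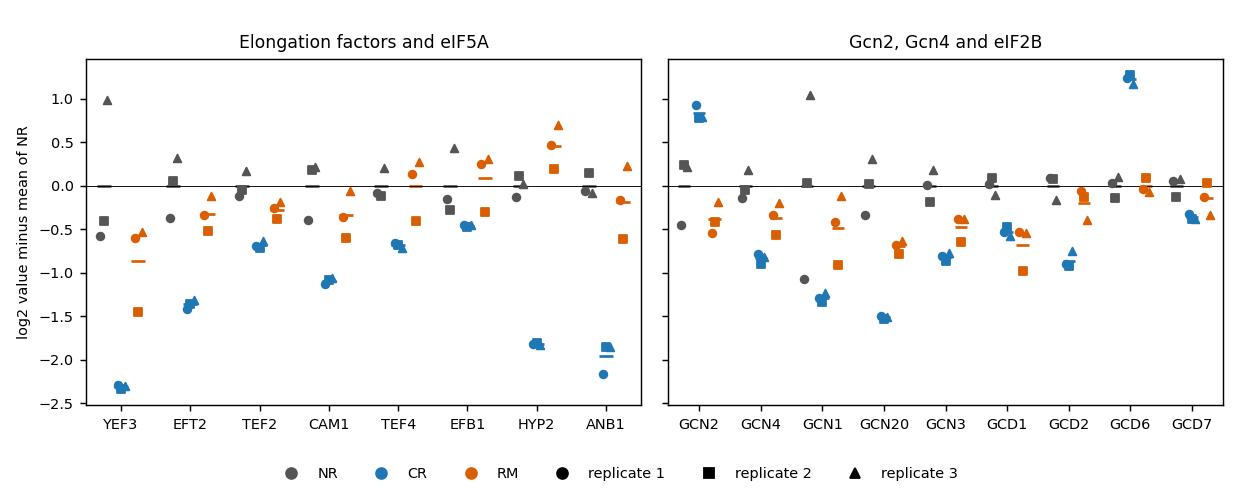
Log2 value minus the mean of NR in each of the 9 arrays for elongation factors with eIF5A genes (left) and for GCN2, GCN4, the Gcn2 activators and eIF2B subunits (right), with group means as bars, colours for groups and symbols for replicates. HYP2 has its RM points above and its CR points below NR, and GCN2 and GCD6 are the genes on the right with CR points above NR.

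Both release factor genes were lower in CR, where 33.6% of all genes were lower. SUP35 (YDR172W), or eRF3, the GTPase that can form the PSI prion, measured 8.09, 8.26 and 8.33 in NR, 7.28, 7.28 and 7.25 in CR, and 7.94, 7.56 and 7.95 in RM. CR was lowest, RM lay below NR, and RM replicate 2 was the lowest RM array. SUP35 was lower in CR, at -0.96 (adjusted p 0.000198), and its RM call, at -0.41 (adjusted p 0.0419), was lost in 7 of the 9 fits that left out 1 array (-0.28 without RM replicate 2). SUP45 (YBR143C), or eRF1, which reads the stop codon, measured 8.59, 8.28 and 8.76 in NR, 8.05, 7.87 and 8.03 in CR, and 8.41, 8.24 and 8.24 in RM. CR lay below all others, and the RM arrays overlapped NR. SUP45 was lower in CR, at -0.56 (adjusted p 0.00643) and differed by -0.25 between RM and NR (adjusted p 0.198).

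GCN2 (YDR283C), the kinase that acts on eIF2, and GCN4 (YEL009C), the activator of amino acid synthesis genes, moved in opposite directions in CR. GCN2 measured 6.25, 6.95 and 6.92 in NR, 7.64, 7.48 and 7.49 in CR, and 6.16, 6.29 and 6.52 in RM. The CR arrays lay above all others, and RM overlapped NR. GCN2 was higher in CR than in NR by 0.83 (0.40 to 1.27, adjusted p 0.00366) and higher in CR than in RM by 1.21 (adjusted p 0.000564). GCN4 measured 11.51, 11.60 and 11.83 in NR, 10.86, 10.75 and 10.83 in CR, and 11.31, 11.09 and 11.45 in RM. NR was highest and CR lowest, without overlap. GCN4 mRNA was lower in CR than in NR, at -0.83 (-1.14 to -0.53, adjusted p 0.000453) and differed by -0.37 between RM and NR (adjusted p 0.0595). It was lower in CR than in RM, at -0.47 (adjusted p 0.0147), a call lost without CR replicate 2, RM replicate 1 or RM replicate 3 (-0.39 to -0.45). These are mRNA values, and neither Gcn2 activity nor Gcn4 protein was measured.

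GCN1 and GCN20, whose products are needed to activate Gcn2 on ribosomes, were both lower in CR, with differences of -1.29 (adjusted p 0.0252) and -1.51 (adjusted p 3e-05). GCN1 had NR values of 4.88, 5.99 and 6.99, so that its replicates were far apart, and its CR call was lost without any 1 CR array, NR replicate 2 or NR replicate 3 (-0.77 to -1.32). In RM, GCN20 was lower than in NR, at -0.70 (adjusted p 0.00987), and GCN1 differed by -0.48 (adjusted p 0.401). Of the 5 subunits of eIF2B, which recycles eIF2 and is the target of its phosphorylated form, GCN3, GCD1, GCD2 and GCD7 were lower in CR, with differences of -0.81, -0.53, -0.86 and -0.36, and GCD6, the catalytic subunit, was higher. The call of GCD7 was lost without any 1 CR array or NR replicate 1 (-0.34 to -0.38). GCD6 measured 6.999, 6.83 and 7.07 in NR, 8.21, 8.24 and 8.13 in CR, and 6.93, 7.06 and 6.89 in RM. Its CR arrays lay above all others, and RM overlapped NR. GCD6 was higher in CR than in NR by 1.23 (adjusted p 1.51e-05) and differed by -0.01 between RM and NR (adjusted p 0.972). GCD1 and GCN3 were lower in RM than in NR, at -0.69 and -0.47 (adjusted p 0.00741 and 0.0236), while GCD2 and GCD7 were not called. The RM call of GCN3 was lost in 2 of the 9 fits that left out 1 array, with differences over the 9 from -0.57 to -0.38. Over all genes, 33.6% were called lower in CR and 19.4% in RM. Of 16 amino acid synthesis genes known as Gcn4 targets, 7 were lower and 2 higher in CR than in NR, with a median of -0.63, and 2 (ARO4 and TRP5) were lower and 1 (ARG3) higher in RM, with a median of -0.03, beside the 33.6% lower and 35.3% higher of all genes in CR and the 19.4% and 17.6% in RM. The RM calls of TRP5 and ARG3 were lost in 7 and 3 of the 9 fits that left out 1 array, with differences then from -0.59 to -0.44 and from 0.45 to 0.52. HOM3, of threonine and methionine synthesis, had the largest CR difference at -2.67 (adjusted p 0.00104), with NR values of 6.17, 6.30 and 8.24 and CR values of 4.11, 4.17 and 4.42, or -2.0002 without NR replicate 3. ARG3 and HIS5, of arginine and histidine synthesis, were the higher pair in CR, by 1.29 (adjusted p 8.33e-05) and 0.82 (adjusted p 0.007). ARO4, of aromatic amino acid synthesis, had the largest RM difference at -1.53 (adjusted p 0.0168; call lost without RM replicate 2, at -1.30), and LYS1, of lysine synthesis, the largest between CR and RM at -2.42 (adjusted p 4.03e-05).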

How the data were processed

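The 9 arrays fall into 3 groups of 3 by their titles. Per the submitters' processing notes, the tools used by the authors were RMA, which normalizes and summarizes Affymetrix probe signals on the log2 scale, and Transcriptome Analysis Console 2.0. Their roles, the annotation and the genome build are not given in the sources used here. Deposited log2 values per array, 1 for each of 5716 probe sets, were the starting point. The authors' deposited table of signed fold changes and p-values was used as an alternative. Group means of the log2 values gave the log2 of those deposited folds within 1e-09 in all 5667 genes, which settles the scale and direction, and the values were not centred per gene. The number of arrays limits the precision.

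Each open reading frame was read from its first probe set, and 47 genes had more than 1. RefSeq symbols of assembly R64 matched 5646 genes by locus tag and 21 not. Of the 5716 probe sets, 5498 had 1 symbol in the platform annotation and 218 had none. limma 3.58.1 (R 4.3.3) fitted group means to all 9 arrays (6 residual and 3.27 prior degrees of freedom), two-sided, with Benjamini-Hochberg adjustment over all genes. A check on simulated data gave each gene the same spread in all groups, so it did not cover the unequal spread between groups seen here. No count of reads exists for arrays. Differences between gene pairs were tested by exact permutation (scipy 1.17.1), adjusted over 24 comparisons. The plan did not set these tests. SUI2 with GCD11, TIF35 with PRT1 and DED1 with DBP1 each join genes with unlike differences. Their lack of overlap follows from the values already given and is not separate support.

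The members, lists and rules were chosen with earlier results of these data known. Genes given in every array were the 3 largest differences per role, paralogue pairs, members higher in CR, GCN2, GCN4 and PAB1; genes outside the 51 are named as partners or as the largest difference of their list, and DPS1, GLN4, SUI1, MSD1, MSF1, MSR1, SLM5, TRP5, ARG3 and HIS5 were singled out after their values were seen. Alternatives varied scaling, probe sets, the filter on dim genes, the variance model, the arrays fitted and the call. Added after the data were seen were a fit without NR replicate 3 and RM replicate 2, 1 weight per group, and the per-gene test with a separate spread for each group. Same-numbered arrays did not deviate together in every pair of groups (correlations from -0.20 to 0.35), so replicate numbers were not used as pairs. Promoter and protein sequences were not used here.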

Additional observations from a re-analysis of the deposited data

How the results depend on the processing

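Of the genes called, 33 of 35 lower and 3 of 3 higher in CR against NR kept their call in every alternative limma fit made for them, as did 4 of 20 lower and 1 of 3 higher in RM against NR, and 15 of 23 lower and 5 of 5 higher in CR against RM. There were 18 such fits with no fold limit, and 17 for TYS1 and WRS1, which the filter on dim genes removed. The per-gene test with a separate spread for each group also gave up limma's borrowing of spread between genes. With it, the calls went from 38 to 12 in CR against NR, from 23 to 0 in RM against NR and from 28 to 17 in CR against RM. With a 2-fold limit they were 23, 3 and 9, and with the authors' deposited fold of at least 2 and p under 0.05 in the authors' deposited table they were 22, 1 and 8. With the p of the authors' deposited table adjusted over all genes, RM against NR gave 8 and CR against RM gave 18. RM against NR gave 5 with its own arrays alone and 9 with 1 weight per group. Leaving out 1 array at a time gave 36 to 40 calls in CR against NR, 11 (without RM replicate 2) to 35 (without NR replicate 1) in RM against NR and 20 to 36 in CR against RM, and the median of CR against RM ran from -0.71 (without RM replicate 2) to -0.45 (without RM replicate 3). Without NR replicate 3 and RM replicate 2 together, the median was -0.16 in RM against NR and -0.71 in CR against RM, and TEF4 in RM against NR turned from -0.000253 to 0.30; fewer arrays and, for the median, the removal of the extreme arrays are part of that setting. The cause of the other changes was not tested. With the replicate number as a block, the calls were 39, 19 and 31, each within 1.5 times of 38, 23 and 28. No fission yeast probe sets were in the data used here, so the filter on dim genes dropped the 1417 genes with the lowest means and left 46 of the 48. The planned promoter motif search was not run.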

Other observations

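Other translation factors outside the 51 genes also differed between the groups. Of 28 such genes, including those given above, 16 were lower and 4 (GCD6, CAF20, DBP1 and HBS1) higher in CR than in NR, with a median of -0.46, and 11 were lower and 2 (DBP1 and DOM34) higher in RM, with a median of -0.41, where 33.6% of all genes were lower and 35.3% higher in CR, and 19.4% and 17.6% in RM. DED1 and DBP1 encode related helicases that unwind mRNA during scanning, and they differed from NR in opposite directions. DED1 measured 9.27, 9.11 and 9.20 in NR, 7.61, 7.56 and 7.61 in CR, and 8.11, 8.05 and 7.96 in RM. NR was highest and CR lowest, without overlap. DBP1 measured 9.79, 9.48 and 9.05 in NR, 11.26, 11.27 and 11.33 in CR, and 10.502, 10.67 and 10.39 in RM. The order of the groups was the reverse, again without overlap. DED1 was lower in CR, at -1.60 (adjusted p 2.66e-06) and in RM, at -1.15 (adjusted p 0.000197), while DBP1 was higher in CR by 1.84 (adjusted p 2.17e-05) and in RM by 1.08 (adjusted p 0.00288). DED1 minus DBP1 differed by -3.44 between CR and NR and by -2.24 between RM and NR, without overlap in either (exact permutation p = 0.1 for both, the smallest possible, adjusted 0.185). These gaps restate the opposite differences of DED1 and DBP1.

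STM1, a ribosome-bound protein linked to ribosome preservation in starved cells, was lower in CR, at -1.86 (adjusted p 3.72e-05) and differed by -0.25 in RM (adjusted p 0.341). CAF20, which competes with eIF4G for eIF4E, was higher in CR by 0.34 (adjusted p 0.0311), a call lost without any 1 CR array or NR replicate 2 (0.26 to 0.35). HBS1 and DOM34 encode partners that rescue stalled ribosomes. HBS1 was higher in CR by 0.78 (adjusted p 0.00753) and differed by -0.54 in RM (adjusted p 0.064), and DOM34 differed by 0.05 in CR (adjusted p 0.832) and was higher in RM by 0.59 (adjusted p 0.0374), a call lost in 7 of the 9 fits that left out 1 array (0.45 to 0.59). DED1, DBP1, STM1, CAF20, HBS1 and DOM34 were named after their values were seen.

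Mating type markers differed in both directions within the alpha list. Of the 4 markers of type a, STE2, MFA2 and BAR1 were lower in CR than in NR, at -0.83, -2.11 and -1.56 (adjusted p 0.0449, 0.00324 and 0.0059), and MFA1 differed by -0.97 (adjusted p 0.0909). NR replicate 3 was the highest NR array for all 4, and without it the differences were -0.37 for STE2, -1.41 for MFA2, -1.02 for BAR1 and -0.33 for MFA1. Of the 3 markers of type alpha, STE3 and SAG1 were higher in CR by 1.69 and 0.38 (adjusted p 9.01e-05 and 0.0449), and MF(ALPHA)1 was lower, at -2.12 (adjusted p 0.0225), or -1.08 without NR replicate 3. The calls of STE2, SAG1 and MF(ALPHA)1 were lost in 6, 6 and 2 of the 9 fits that left out 1 array. Their part in the other differences was not tested.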
